A study of Homo sapiens with 12 samples.

Results

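The subject here is the small nucleolar RNAs and their host genes, measured after THZ531 treatment in A673 and TC32, which are cell lines of Ewing sarcoma. The members were chosen by name: every gene whose symbol begins with SNORA, SNORD, SCARNA or SNHG, plus GAS5, with a row annotated to that gene alone and values written with 3 decimals. This gave 57 of the 16913 genes kept from the table, namely 37 box H/ACA RNAs, 7 box C/D RNAs, 4 small Cajal body RNAs (scaRNAs) and 9 host genes (SNHG1, SNHG7, SNHG8, SNHG9, SNHG11, SNHG12, SNHG17, SNHG28 and SNHG32). No such row was annotated to GAS5. The group was selected on measured values, since members lay above DMSO after treatment, so the differences from DMSO below are a description of the members and carry no test.

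Cells of each line received THZ531 at 500 nM, THZ531 at 100 nM, or the solvent DMSO, for 6 hours. Each of the 6 groups holds 2 arrays, which the labels call biological replicates. A673 and TC32 both carry the EWS/FLI fusion of Ewing sarcoma, and each is 1 line standing for the disease. THZ531, which the sample labels write as THZ_5_31_1, binds covalently to CDK12 and CDK13 and inhibits these kinases, which phosphorylate RNA polymerase II as it elongates. The series title names CDK12 inhibition as its subject, and all groups share the same total RNA preparation with ERCC spike-in RNA added. Values are log2 signals as deposited.

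Small nucleolar RNAs guide chemical modification of other RNAs. Box H/ACA RNAs direct pseudouridylation, box C/D RNAs direct ribose methylation, and scaRNAs act on the spliceosomal RNAs in Cajal bodies. In human cells most of them lie in introns of a host gene, are released when the intron is spliced and debranched, and are trimmed from both ends until their protein complex stops the exonuclease. The spliced host RNA is a separate product, either a messenger RNA, often of the translation machinery, or a noncoding RNA such as those of the SNHG genes, many of which are degraded in the cytoplasm during translation. On these arrays a probe set for an intronic small RNA reads any RNA that holds its sequence, so the processed RNA and unspliced host RNA cannot be told apart.

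All 48 small RNA members lie inside another gene by RefSeq's annotation (GRCh38.p14), 39 of them in a protein-coding gene and 9 in a long noncoding RNA gene. The starts of 10 hosts are printed. RPL12, ZFAS1, IARS1, SNHG4, SLC25A3 and DANCR enclose the small RNAs that stood at least 1 above DMSO in both lines, SNHG17, SNHG7 and SNHG12 are the host members furthest from DMSO, and SNHG32 is shown beside them as a host that stayed near the array medians. Each stretch comes from RefSeq's promoter windows (GRCh38.p14), reads along the gene's strand and holds 50 bases. The annotated start is base 26. Capitals mark the unbroken run of C and T bases that begins there, as in the terminal oligopyrimidine starts of ribosomal protein genes.
RPL12: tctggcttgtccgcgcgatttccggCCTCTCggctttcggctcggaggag
ZFAS1: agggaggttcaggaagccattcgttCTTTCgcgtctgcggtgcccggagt
IARS1: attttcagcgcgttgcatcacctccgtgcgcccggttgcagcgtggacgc
SNHG4: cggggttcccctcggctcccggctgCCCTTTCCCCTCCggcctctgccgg
SLC25A3: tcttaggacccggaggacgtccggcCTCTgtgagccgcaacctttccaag
DANCR: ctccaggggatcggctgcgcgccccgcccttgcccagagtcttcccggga
SNHG17: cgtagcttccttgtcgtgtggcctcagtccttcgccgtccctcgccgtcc
SNHG32: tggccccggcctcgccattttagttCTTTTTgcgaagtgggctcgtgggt
SNHG7: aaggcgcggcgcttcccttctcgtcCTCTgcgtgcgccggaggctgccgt
SNHG12: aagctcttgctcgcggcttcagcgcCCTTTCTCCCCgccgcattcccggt

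The RPL12 stretch is chr9:127451382-127451431, minus strand, and the ZFAS1 stretch chr20:49278617-49278666, plus strand. IARS1 is shown at chr9:92293673-92293722, minus strand, SNHG4 at chr5:139274076-139274125, plus strand, and SLC25A3 at chr12:98593661-98593710, plus strand. DANCR is shown at chr4:52712369-52712418, plus strand, and SNHG17 at chr20:38435304-38435353, minus strand. The remaining stretches are SNHG32 at chr6:31834891-31834940, plus strand, SNHG7 at chr9:136728160-136728209, minus strand, and SNHG12 at chr1:28581849-28581898, minus strand. A start with C and at least 5 C or T bases in a row was read on the gene's own strand only. It was found in 5 of these 10, in 12 of the 39 hosts that have a single window, and in 4.07% of all 35116 windows.

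The general level of the arrays moved with treatment and must be read beside every value. The median of all kept genes was 7.32 and 7.07 in A673 under DMSO, 6.61 and 6.54 at 100 nM, then 6.60 and 6.13 at 500 nM. In TC32 it was 6.54 and 6.47 under DMSO, 6.36 and 6.24 at 100 nM, then 5.74 and 5.68 at 500 nM. The 2 A673 arrays at 500 nM therefore stood apart from each other by more than any other pair. How the authors scaled the arrays is not given in the sources used here, and less RNA in the cells cannot be told apart from a difference in scaling. Differences are given as deposited unless called relative, in which case each array was first centred on its own median. A level under 5.94, the 40th percentile of mean signal over the kept genes, is called dim, and 28 of the 57 members had a mean under it over the 12 arrays. In 15 members every group mean was dim, and in 15 none was. Of the 10 Ewing sarcoma marker genes, 8 were measured and none of these was dim on the mean of the 12 arrays. Of 22 marker genes of blood, epithelial, endothelial, fibroblast and muscle cells, 21 were measured, and 12 of these were dim on that mean and 9 were not. PTPRC, EPCAM, CDH1 and MYOD1 were dim in every group, whereas CD3E and KRT5, dim on that mean, each averaged 6.24 in A673 with DMSO. The 9 above the limit were MUC1 (7.28), CLDN4 (7.14), ACTA1 (7.03), DES (6.95), CD79A (6.90), PDGFRB (6.58), HBB (6.52), VWF (6.21) and PECAM1 (6.05). LUM, dim in A673, averaged 6.90 at 500 nM and 6.86 with DMSO in TC32.

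As a family, the members were not above DMSO at 500 nM as deposited, while most other genes were below it. Their median difference, 500 nM minus DMSO, was -0.00 (log2) in A673 and 0.04 in TC32. Over all kept genes it was -0.53 in A673 and -0.39 in TC32. In A673, 19 members had both 500 nM arrays above both DMSO arrays, as did 2.04% of all kept genes, and 16 had both below, as did 66.8%. In TC32, 18 members were above in this sense (3.04% of all kept genes) and 17 below (75.1%). Above DMSO in both lines were 13 members, namely SNORA3B, SNORA26, SNORA53, SNORA54, SNORA60, SNORA65, SNORA74A, SNORA80E, SNORA84, SNORD12B, SNORD17, SNHG9 and SNHG17. Below in both were 8, namely SNORA16B, SNORA70C, SNORA71C, SNORD8, SNHG7, SNHG11, SNHG12 and SNHG32. The shares of all kept genes above or below in both lines were not counted. From the shares in A673 they can be at most 2.04% above and 66.8% below.

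The scaling decides how this picture reads. Relative to the array medians, 48 members were above and 4 below in A673, where 57.7% and 21.9% of all kept genes were. In TC32 the relative counts were 54 and 2, beside 65.6% and 24.4% of all kept genes. The relative median difference of the members was 0.83 in both lines, against 0.30 for all kept genes in A673 and 0.40 in TC32. Dim genes as a whole were also less far below DMSO, with medians as deposited of -0.29 in A673 and -0.22 in TC32, against -0.73 and -0.64 for brighter genes. Among the 29 members that were not dim, the medians were -0.06 in A673 and 0.01 in TC32.

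At 100 nM the lines parted as deposited, over all kept genes as well as over the members. In A673 both treated arrays were above both DMSO arrays for 19 members (3.45% of all kept genes) and below for 21 (74.2%). In TC32 the counts were 33 above (24.0%) and 6 below (34.4%). The median difference of the members, 100 nM minus DMSO, was -0.04 in A673 and 0.32 in TC32, against -0.42 and -0.02 for all kept genes. Group means climbed in the order DMSO, 100 nM, 500 nM for 19 members in A673 and 13 in TC32. In TC32 the 100 nM mean lay above both others for 31 members, compared with 8 in A673. How many of all kept genes had these orders was not counted. Relative counts at 100 nM were 45 above and none below in A673, beside 50.0% and 18.1% of all kept genes, and 41 above and 1 below in TC32, beside 51.2% and 21.2%. The relative median difference of the members was 0.575 in A673 and 0.525 in TC32, against 0.19 for all kept genes in each line.

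Box H/ACA RNAs, the largest class, held most of the members on either side of DMSO at 500 nM. Of all kept genes, 2.04% were above DMSO without overlap and 66.8% below in A673, and 3.04% and 75.1% in TC32. Of the 37 box H/ACA RNAs, 15 were above DMSO without overlap and 9 below in A673, with a median of 0.18, and 12 were above and 9 below in TC32, with a median of 0.10. Of the 7 box C/D RNAs, 2 were above and 2 below in each line, with medians of -0.16 in A673 and -0.04 in TC32. Among the 4 scaRNAs, none was above and 1 below in A673, and 1 was above and 1 below in TC32. The scaRNA values were 0.40 and 0.54 for SCARNA9L, -0.13 and 0.14 for SCARNA14, -0.37 and -0.29 for SCARNA20 and -0.45 and -0.17 for SCARNA10, A673 first. The 9 host genes gave 2 above and 4 below in A673 (median -0.28) and 3 above and 5 below in TC32 (median -0.43). With 4 to 9 members in the smaller classes, these counts do not separate one class from another.

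**Figure D1:**
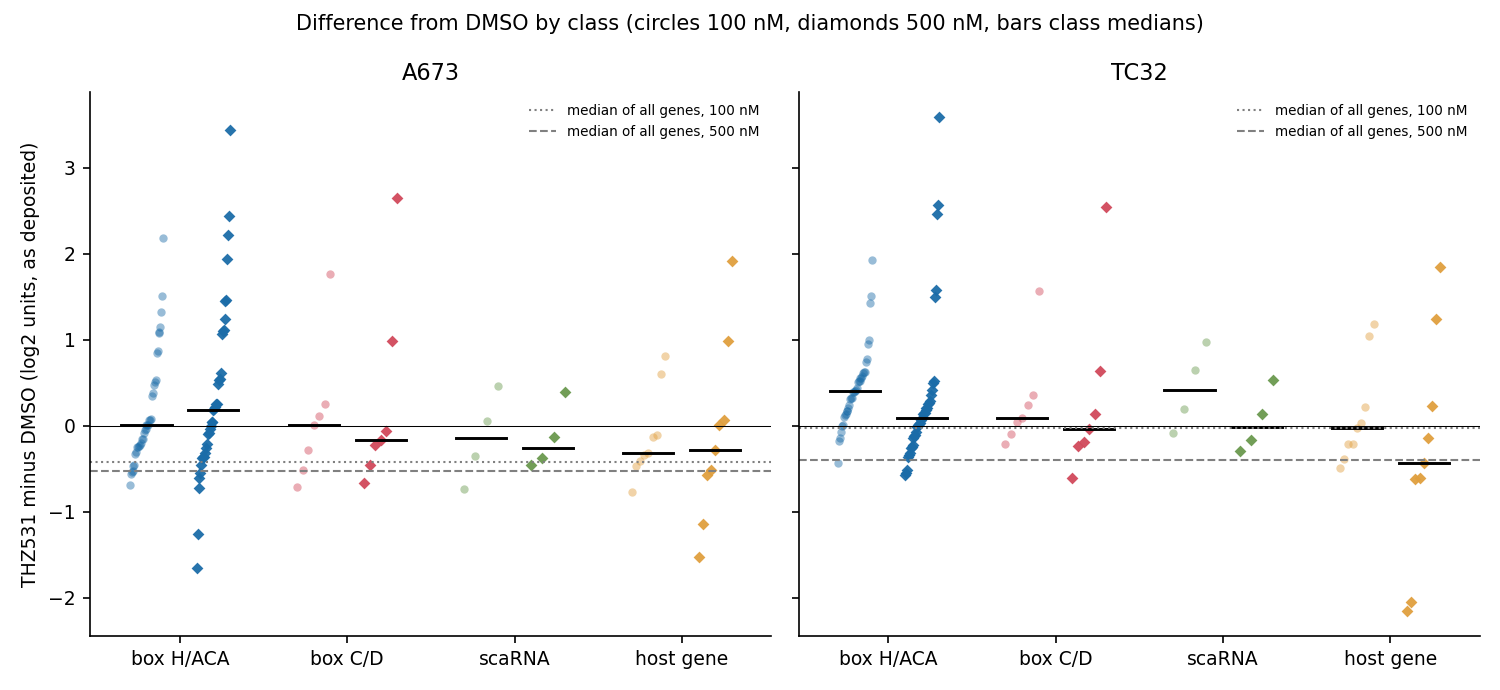
Difference from DMSO of every member (log2 units, vertical axis) by class, at 100 nM (circles) and 500 nM (diamonds), in A673 (left) and TC32 (right). Black bars are class medians and grey lines the medians of all kept genes, -0.53 in A673 and -0.39 in TC32 at 500 nM. A few box H/ACA RNAs, 1 box C/D RNA and 1 host stand more than 1.5 above zero in both lines while most points lie near it.

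A set of 7 members stood at least 1 above DMSO at 500 nM in both lines: SNORA65, SNORD12B, SNORA84, SNORA74A, SNORA53, SNORA26 and the host SNHG17. In A673, 12 members reached that size and 4 were at least 1 below, and in TC32 8 and 2 did so. The shares of all kept genes that reached these sizes were not counted, so the counts stand without a background. All 7 had group means in dose order in both lines.

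SNORA65, a box H/ACA RNA inside RPL12, showed the highest difference of any member in both lines. In A673 it read 5.21 and 5.79 under DMSO, 7.75 and 7.63 at 100 nM, then 9.20 and 8.69 at 500 nM. In TC32 it read 5.09 and 4.97 under DMSO, 6.90 and 7.00 at 100 nM, then 8.72 and 8.52 at 500 nM. The groups did not overlap at any step in either line. The DMSO means were dim, so the difference at 500 nM of 3.44 in A673 and 3.60 in TC32 stands for at least 7.99-fold and at least 6.41-fold, counted from the dim limit.

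SNORD12B, a box C/D RNA inside the noncoding gene ZFAS1, was the only member of its class with such a difference. It read 5.29 and 5.42 under DMSO, 7.15 and 7.08 at 100 nM, then 8.26 and 7.75 at 500 nM in A673. The TC32 values were 4.92 and 4.88 under DMSO, 6.39 and 6.55 at 100 nM, then 7.42 and 7.48 at 500 nM. The differences at 500 nM were 2.65 in A673 and 2.55 in TC32, with no overlap between doses. Of the other 6 box C/D RNAs, SNORD17, inside SNX5, came next at 0.99 and 0.64, and the rest lay between -0.66 and 0.14.

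SNORA84, inside the isoleucyl-tRNA synthetase gene IARS1, was not dim in A673 under DMSO, so its fold there is measured on both sides. It read 7.29 and 7.44 under DMSO, 8.91 and 8.83 at 100 nM, then 10.08 and 9.53 at 500 nM, a 5.44-fold difference between 500 nM and DMSO. In TC32 it read 5.82 and 5.43 under DMSO, 7.17 and 7.11 at 100 nM, then 8.29 and 8.09 at 500 nM, at least 4.76-fold. Each dose lay above the one before it on every array.

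SNORA74A lies inside the noncoding gene SNHG4, and MATR3 also encloses it. Its values were 5.58 and 5.34 under DMSO, 6.86 and 6.71 at 100 nM, then 7.93 and 7.44 at 500 nM in A673. The TC32 values were 5.19 and 4.80 under DMSO, 6.07 and 5.92 at 100 nM, then 7.45 and 7.48 at 500 nM. Its relative SNORA74B, inside ATP6V0E1, was at -0.54 in A673 and -0.34 in TC32 at 500 nM, against 2.22 and 2.47 for SNORA74A. One of the SNORA74A probe sets is of a type that can match related transcripts.

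SNORA53, inside the mitochondrial phosphate carrier gene SLC25A3, was dim on the mean of the 12 arrays. It read 6.26 and 6.17 at 500 nM against 4.08 and 4.47 with DMSO in A673, and 5.76 and 5.45 at 500 nM against 4.12 and 3.93 with DMSO in TC32. Its differences between the group means were 1.94 in A673 and 1.58 in TC32. Since all but the A673 group at 500 nM was dim, these give a fold of at least 1.21 in A673 and none in TC32. SNORA26, inside the noncoding gene DANCR, read 7.24 and 7.07 at 500 nM against 5.94 and 5.43 with DMSO in A673. In TC32 it read 6.42 and 6.42 at 500 nM against 5.13 and 4.72 with DMSO. In that line its 100 nM values of 6.53 and 6.17 already spanned the 500 nM level.

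Further members were high in A673 more than in TC32. SNORA19, inside the translation factor gene EIF3A, was at 1.46 in A673 and 0.36 in TC32 at 500 nM, but dim in every group on the mean. SNORA80E, inside KHDC4, read 8.26 and 7.41 at 500 nM against 6.65 and 6.52 with DMSO in A673. In TC32 it read 6.42 and 6.39 at 500 nM against 6.00 and 5.82 with DMSO. SNORA3B (1.10 and 0.29), SNORA37 (1.07 and 0.25) and SNORA2A (1.11 and -0.12) followed the same order of A673 over TC32. Whether the lines differ is tested below for the members that were not dim.

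**Figure D2:**
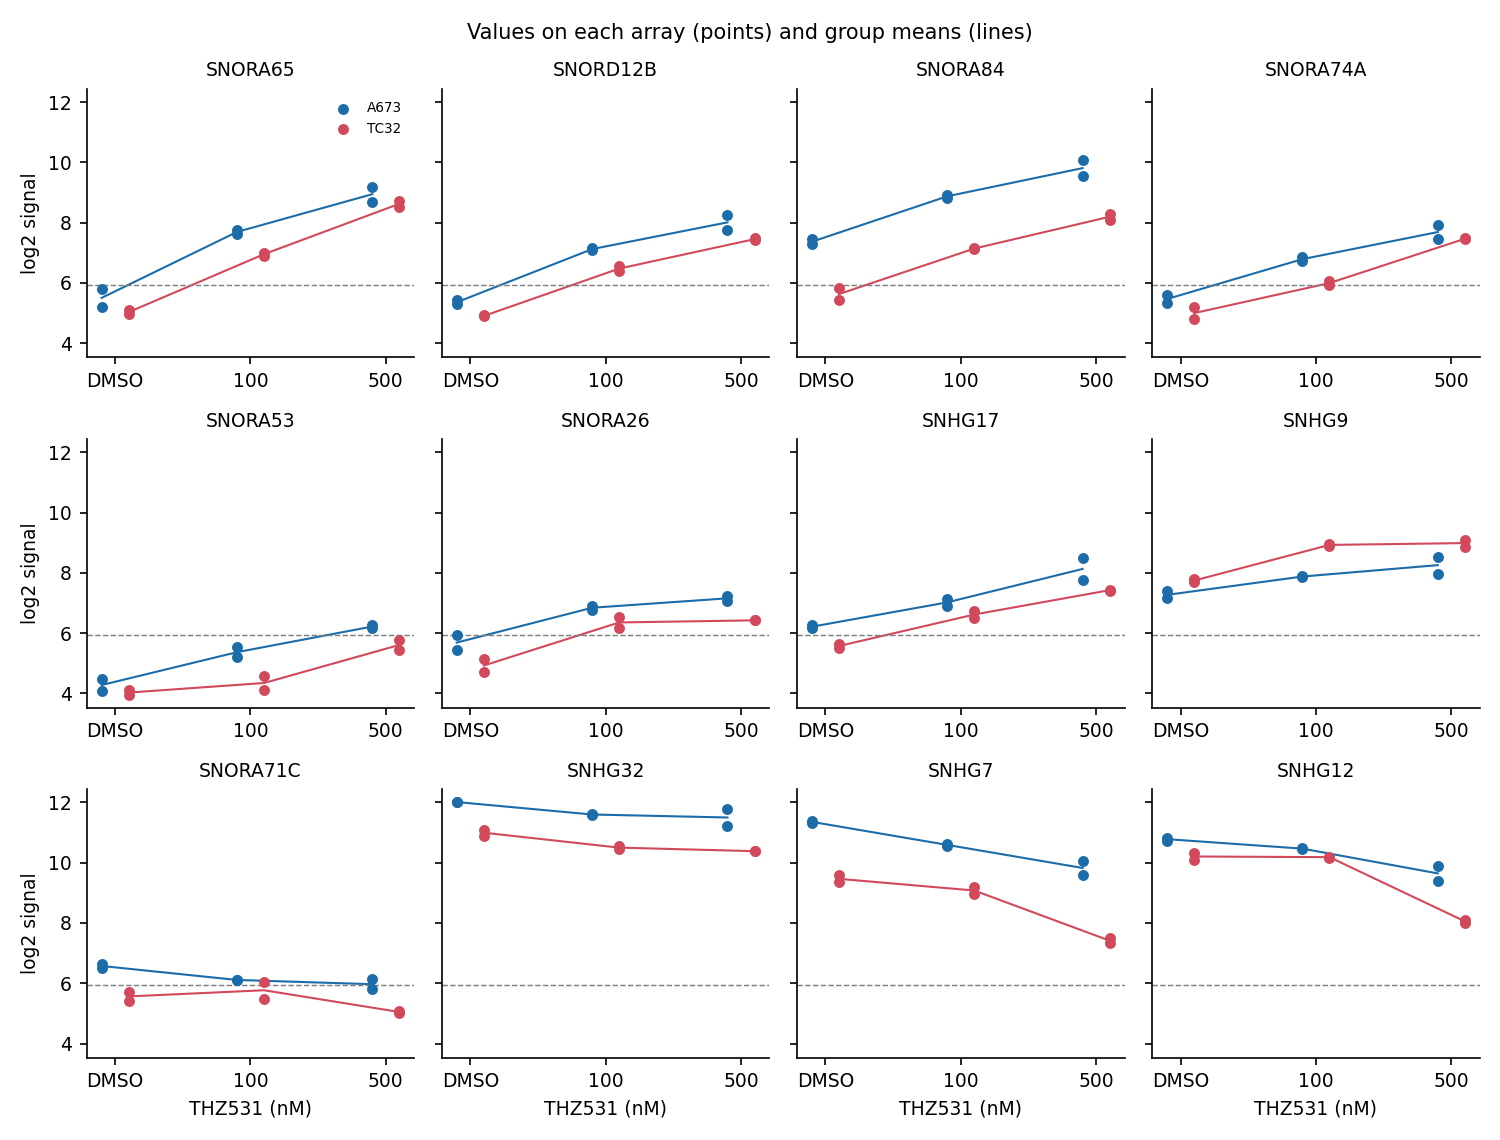
Log2 signal on each array (points) and group means (lines) against THZ531 dose for 12 members in A673 and TC32. The dashed line is the dim limit of 5.94. SNORA65 reaches 8.69 to 9.20 at 500 nM in A673, above its DMSO values of 5.21 and 5.79, whereas SNHG7 and SNHG12 lie lower at 500 nM than with DMSO in both lines.

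The host genes split in 2 directions. SNHG17, the noncoding host of the SNORA71 family, read 6.25 and 6.17 under DMSO, 7.13 and 6.91 at 100 nM, then 8.48 and 7.78 at 500 nM in A673. In TC32 it read 5.64 and 5.50 under DMSO, 6.72 and 6.51 at 100 nM, then 7.40 and 7.44 at 500 nM. The difference at 500 nM was 3.78-fold in A673 and at least 2.79-fold in TC32. SNHG9, the host of SNORA78, read 8.53 and 7.97 at 500 nM against 7.38 and 7.15 with DMSO in A673, and 8.87 and 9.10 at 500 nM against 7.79 and 7.69 with DMSO in TC32. These 2 were the hosts above DMSO without overlap in both lines.

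SNHG7 and SNHG12 lay at the other end. SNHG7 read 11.39 and 11.32 under DMSO, 10.55 and 10.63 at 100 nM, then 10.05 and 9.61 at 500 nM in A673. In TC32 it read 9.58 and 9.35 under DMSO, 8.96 and 9.20 at 100 nM, then 7.49 and 7.33 at 500 nM, so the signal at 500 nM was lower than under DMSO by 2.89-fold in A673 and 4.15-fold in TC32. SNHG12 read 10.83 and 10.74 under DMSO, 10.48 and 10.45 at 100 nM, then 9.90 and 9.39 at 500 nM in A673. Its TC32 values were 10.31 and 10.11 under DMSO, 10.17 and 10.20 at 100 nM, then 8.02 and 8.09 at 500 nM, so that in TC32 the 100 nM arrays lay within the range of the DMSO arrays and the 500 nM arrays far below it. Relative to the array medians SNHG7 was still below DMSO at 500 nM (-0.70 in A673 and -1.26 in TC32), as was SNHG12 (-0.30 and -1.36).

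The other hosts stayed close to DMSO or lay moderately below it. SNHG1 was at 0.07 in A673 and 0.23 in TC32 at 500 nM, and SNHG28, which was dim, at 0.01 and -0.14. SNHG8 was at -0.28 and -0.43, SNHG11 at -0.57 and -0.61, and SNHG32 at -0.51 and -0.61. On the relative scale these last 3 were above DMSO instead, SNHG32 by 0.32 in A673 and 0.18 in TC32, so their direction turns with the scaling. In A673 the lowest small RNA was SNORA49, inside EP400, at -1.65, against 0.18 in TC32, and it was dim in every group but A673 with DMSO. In TC32 the lowest was SNORD8, at -0.61.

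Small RNAs and the genes around them stood apart from each other at 500 nM. A host with values was found for 40 of the small RNAs, 35 distinct genes in all. The small RNA stood above its host in the difference from DMSO in 32 of 40 pairs in each line, while the host was below DMSO in 34 of 40. Of the 57 members 28 were dim, and dim genes as a whole were less far below DMSO than brighter ones. The medians were -0.29 in A673 and -0.22 in TC32 for dim genes, against -0.73 and -0.64. How often any dim gene stands above a brighter one was not counted, so the 32 pairs have no background. Across the 40 pairs, which share arrays and in part their hosts, Spearman's rho between both differences was 0.06 in A673 and 0.07 in TC32. RPL12, the large-subunit ribosomal protein gene around SNORA65, read 13.48 and 12.97 at 500 nM against 13.60 and 13.43 with DMSO in A673. In TC32 RPL12 read 13.21 and 13.28 at 500 nM against 13.25 and 13.21 with DMSO.

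The same held for the other hosts of the high small RNAs that had values. IARS1 read 12.14 and 11.59 at 500 nM against 12.47 and 12.40 with DMSO in A673, and 11.38 and 11.36 at 500 nM against 11.85 and 11.66 with DMSO in TC32. SLC25A3 was at -0.27 in A673 and -0.13 in TC32. By limma on all tested genes these differences were small or not called: adjusted p = 0.0444 for RPL12 and 0.0703 for SLC25A3 in A673, and 0.925 and 0.419 in TC32. For IARS1 adjusted p was 0.00118 in A673 and 0.0367 in TC32. Leaving out any of 10 of the 12 arrays ended the call of RPL12 in A673 (adjusted p up to 0.796) and of IARS1 in TC32 (up to 0.287). For SLC25A3 in A673, leaving out replicate 1 at 500 nM or replicate 2 of DMSO brought a call, with an adjusted p as low as 0.000133. Centred on the array medians, all 3 were above DMSO in both lines, by 0.26 to 0.81.

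The SNHG17 locus ran the opposite way. The signal of SNHG17 itself was above DMSO by 1.92 in A673 and 1.85 in TC32, and the 3 SNORA71 members inside SNHG17 lay lower. SNORA71A was at -0.04 and -0.37, SNORA71C at -0.60 and -0.52, and SNORA71D at -0.36 and 0.20. Of these only SNORA71D was above DMSO without overlap, in TC32, with 6.65 and 6.85 at 500 nM against 6.54 and 6.56 with DMSO. SNHG9 and SNORA78 formed a like pair, the host at 0.99 and 1.24 and the small RNA at -0.32 and -0.14. SNORA60 and its host SNHG11 showed the reverse, with 0.54 and 0.42 for the small RNA and -0.57 and -0.61 for the host. Probe sets of the SNORA71 family and of SNORA78 may share sequence with close copies, so a value can hold signal of more than 1 gene.

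Only SNX5, a sorting nexin gene that is no member, was called higher among the 30 tested protein-coding hosts. It read 11.52 and 10.86 at 500 nM against 9.53 and 9.65 with DMSO in A673 (1.60 ± 0.19, SE of the fit, adjusted p 9.41e-16), and 10.10 and 10.20 at 500 nM against 8.97 and 8.55 with DMSO in TC32 (1.39 ± 0.19, adjusted p 3.18e-12). SNORD17 inside it was above DMSO by 0.99 and 0.64. Of the 30 hosts, 24 fell in A673 and 21 in TC32 as deposited, where 82.5% and 62.9% of all tested genes fell and 0.946% rose in each line. KANSL2, a subunit gene of the NSL acetyltransferase complex, fell by 2.51 in A673 and 3.06 in TC32, with SNORA2A inside it at 1.11 and -0.12 and SNORA2C at -0.26 and -0.55. On the relative scale 10 of the 30 hosts were higher and 9 lower in A673, where 29.6% and 27.4% of all tested genes were. In TC32 these counts were 12 and 8, beside 41.3% and 30.8%.

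**Figure D3:**
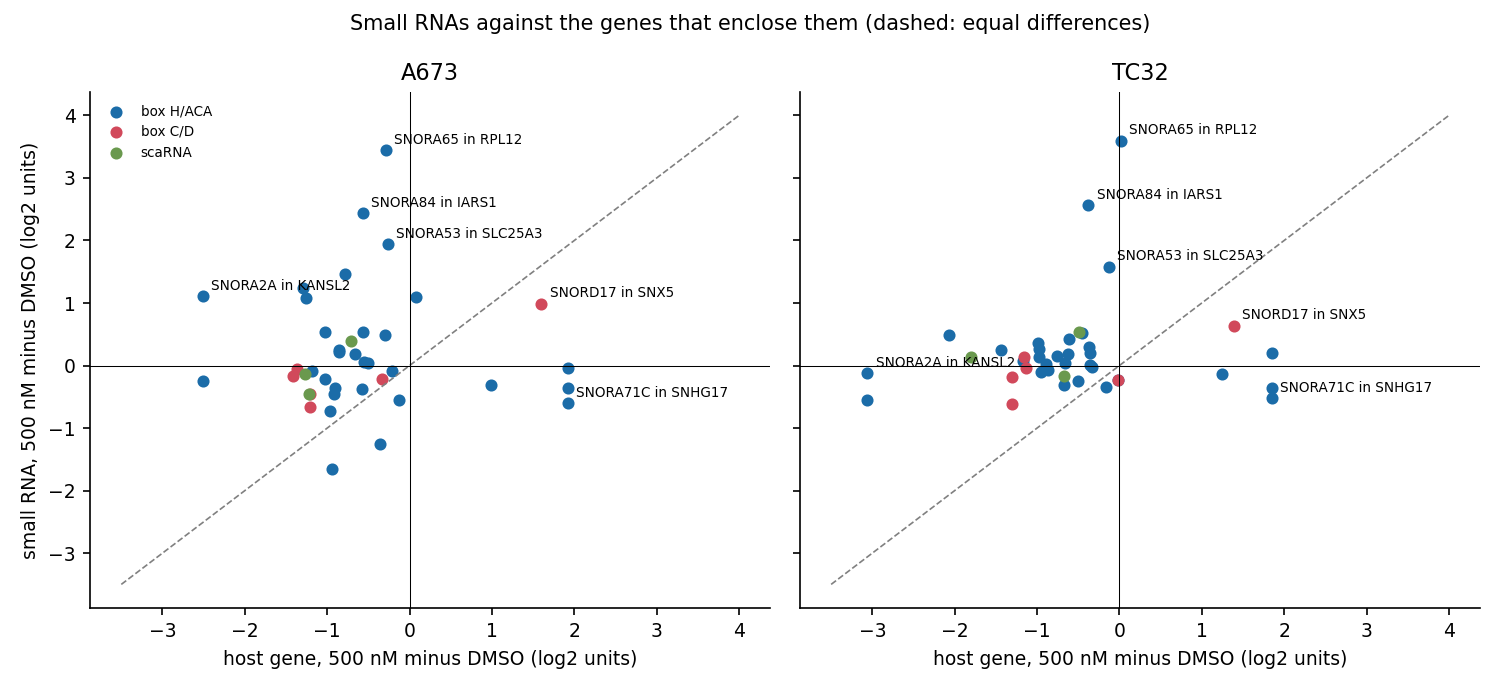
Difference from DMSO at 500 nM (log2 units) of 40 small RNAs (vertical) against that of the gene enclosing each (horizontal), in A673 (left) and TC32 (right). Points above the dashed line are the 32 pairs per line in which the small RNA stood above its host. SNORA65, SNORA84 and SNORA53 lie far above it, and the SNORA71 RNAs in SNHG17 below it.

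The high small RNAs lay at most 5949 bases from the start of their host, a distance that the choice of members did not use. As a part of the host's length this was not always early. SNORA65 lay 2769 bases into RPL12, which is 3733 bases long, and SNORA84 lay 1104 bases into IARS1, which is 83491 bases long. Distances from the annotated host start could be had for 41 small RNAs. The 6 that were at least 1 above DMSO in both lines lay 855 to 5949 bases from it, with a median of 2452. The other 35 lay 959 to 233856 bases from it, with a median of 23738. The host genes of the 6 were 3733 to 83491 bases long (median 10942), and those of the other 42 small RNAs 509 to 991946 bases (median 39307).

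Seen from the position, 16 small RNAs lay within 6000 bases of the host start, a limit chosen after the values were seen. Of these, 11 were above DMSO without overlap at 500 nM in A673 and 11 in TC32, with median differences of 1.03 and 0.48. Of the 25 beyond 6000 bases, 3 in A673 and 3 in TC32 were above DMSO in this way, with medians of -0.13 and -0.04. Among all kept genes 2.04% were above in this way in A673 and 3.04% in TC32. Hosts differed in the same order, with medians of -0.31 and -0.25 for the nearer group and -0.93 and -0.81 for the farther one. Distance goes with host length and with the kind of host, and these were not separated. SNORA78 in SNHG9 (509 bases long) and SNORA72 in RPL30 (3825 bases) were left out, because no strand of the host was at hand. Their hosts are shorter than 6000 bases, so both would belong to the nearer group. At 500 nM SNORA78 was at -0.32 in A673 and -0.14 in TC32, and SNORA72 at -0.09 and -0.23. The distance of SNORA74A was taken from SNHG4 and not from MATR3, which also encloses it. SNORA71D lay 1329 bases from the start of SNHG17, and SNORA13 lay 959 bases from that of EPB41L4A-AS1. They were at -0.36 and -0.00 in A673, and at 0.20 and 0.15 in TC32, where SNORA71D did not overlap DMSO.

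**Figure D4:**
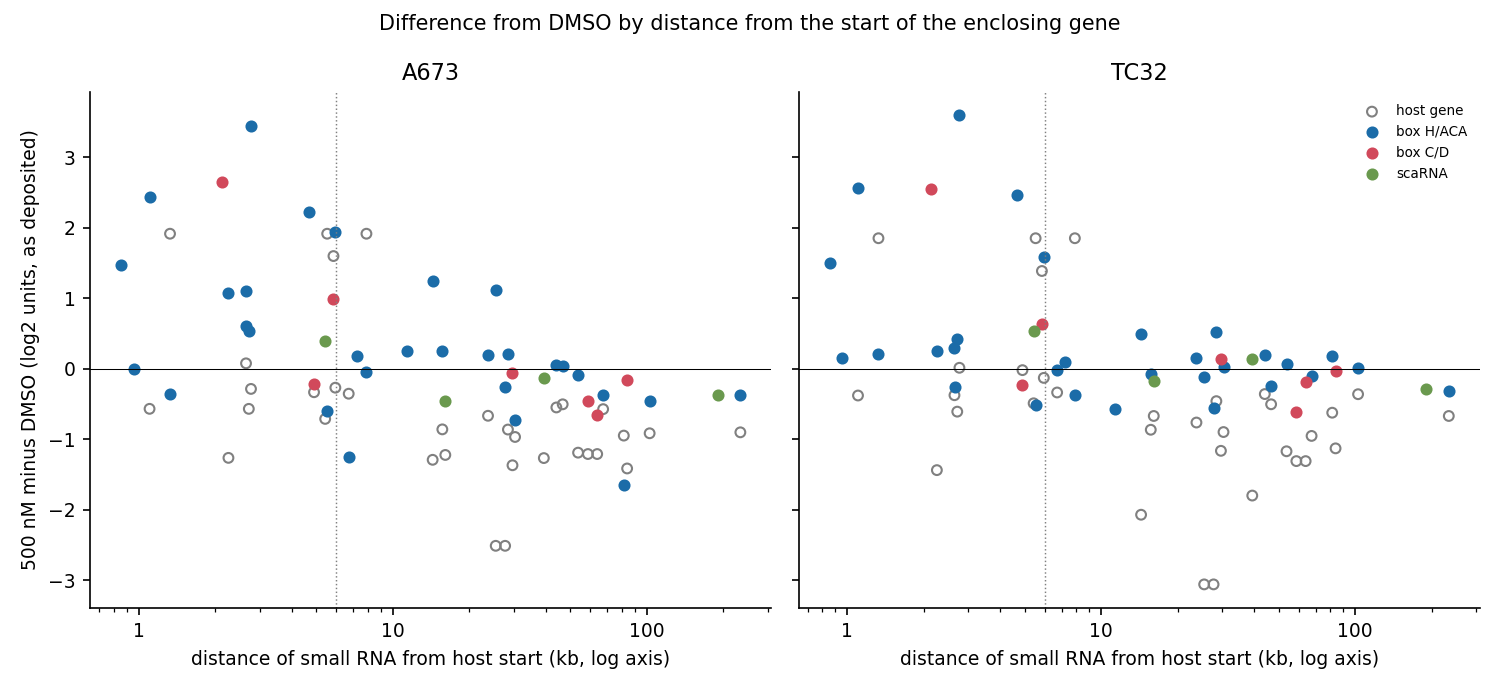
Difference from DMSO at 500 nM (log2 units) against the distance of the small RNA from the start of its host (kb, log axis), for small RNAs (filled) and their hosts (open grey circles at the same distance), in A673 (left) and TC32 (right). The dotted line marks 6 kb. All 6 small RNAs at least 1 above DMSO in both lines lie left of it.

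The letters at the host start divided the small RNAs less clearly. Among hosts with a single window, 10 small RNAs lay in 10 hosts whose start matched C with at least 5 C or T bases, and 27 in 23 hosts whose start did not. The median difference at 500 nM was 0.80 with the match and -0.00 without it in A673, and 0.25 with and 0.02 without in TC32. At least 1 above DMSO were 4 of the 10 and 6 of the 27 in A673, and 3 and 3 in TC32. As the printed starts show, RPL12, ZFAS1 and SNHG4 hold such a run, DANCR and IARS1 do not, and SLC25A3 has 4 bases. SNHG12, with 11, and SNHG32, with 6, hold it too, although the signals of both genes were below DMSO as deposited.

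The comparison of the lines under DMSO was not used to choose the members. By limma with Benjamini-Hochberg adjustment over 10148 tested genes, 25 of the 29 tested members were higher in A673 than in TC32 (77.4% of all tested genes were), 1 was lower (5.13%) and 3 were not called. The members' median difference, A673 minus TC32, was 0.70, against 0.81 for all tested genes, so the share of members is near the background. Which members were tested rested on the mean of all 12 arrays, treated ones included. SNORA65, SNORD12B, SNORA74A and SNORA26, all called higher in A673, had dim DMSO means in both lines. They entered the test only through their treated arrays, so their calls compare dim signals. SNHG7 differed most, with 11.39 and 11.32 in A673 against 9.58 and 9.35 in TC32 (1.89 ± 0.20, SE of the fit with 2 arrays a group, adjusted p 2.37e-19). SNORA84 followed, with 7.29 and 7.44 against 5.82 and 5.43 (1.74 ± 0.21, adjusted p 1.01e-15), and neither line's arrays overlapped the other's. SNORA71D (1.35), SNHG1 (1.25), SCARNA9L (1.20), SNORA74B (1.08) and SNHG32 (1.02) also differed by at least 1.

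Relative to the array medians, 7 of the 29 remained above and 4 were below in A673, where 33.9% and 21.4% of all tested genes were. The 7 were SNHG7 (1.20), SNORA84 (1.05), SNORA71D (0.66), SNHG1 (0.55), SCARNA9L (0.50), SNORA74B (0.39) and SNHG32 (0.33). The calls of SNHG7, SNORA84 and SNORA71D held without any 1 array. Those of SNHG1 and SNHG32 ended without A673 DMSO replicate 2 or TC32 DMSO replicate 2, that of SCARNA9L without TC32 DMSO replicate 1, and that of SNORA74B without A673 DMSO replicate 1 or either TC32 DMSO array. Over these cases the difference ran from 0.21 to 0.89 for SNHG1, from 0.12 to 0.66 for SNORA74B and from 0.34 to 0.97 for SNORA71D. SNHG9 was the member lower in A673 as deposited (-0.47 ± 0.21, adjusted p 0.0284). Relative to the medians it was at -1.17 ± 0.12 (adjusted p 1.79e-08), and that call held without any 1 array, while the call as deposited ended without A673 DMSO replicate 2 or either TC32 DMSO array. Without TC32 DMSO replicate 2 only 13 members were called higher in A673 as deposited.

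The effect of THZ531 at 500 nM differed between the lines for 1 of the 29 tested members as deposited. SNHG12 was further below DMSO in TC32 (-2.15) than in A673 (-1.14), a difference of -1.02 ± 0.28 (limma, adjusted p 0.0215, where 1.28% of tested genes were lower in TC32 in this sense and 0.552% higher). The call ended on leaving out any 1 array other than the 2 A673 arrays at 500 nM (adjusted p up to 0.374). Relative to the array medians the difference was -1.06 ± 0.16 (adjusted p 0.000122) and was called without each of the 12 arrays in turn. Members at an unadjusted p under 0.05 numbered 5 as deposited.

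On the relative scale 6 members had a lower 500 nM effect in TC32 than in A673 and none a higher one, against 6.75% and 3.04% of all tested genes. Besides SNHG12 they were SNORA33 (-0.90), SNORA30 (-0.87), SNORA3B (-0.84), SNORA80E (-0.79) and SNHG7 (-0.56). SNORA30 read 5.49 and 5.29 at 500 nM against 6.06 and 5.86 with DMSO in TC32, and 7.23 and 6.61 at 500 nM against 6.80 and 6.53 with DMSO in A673. SNORA33, inside the ribosomal protein gene RPS12, read 7.42 and 7.12 at 500 nM against 7.64 and 7.40 with DMSO in TC32, and 8.49 and 8.25 at 500 nM against 7.72 and 7.80 with DMSO in A673. The calls of SNHG12, SNORA30, SNORA33 and SNORA3B held without any 1 array on this scale, whereas that of SNORA80E ended without A673 500 nM replicate 1 or TC32 DMSO replicate 1, and that of SNHG7 held in 3 of the 12 cases. For SNORA65, SNORD12B, SNORA84, SNORA74A and SNHG17 the lines differed by -0.10 to 0.24 as deposited, with SEs of 0.29 to 0.31, and none was called.

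At 100 nM, SNORA77, inside the calcium pump gene ATP2B4, was the member whose effect was higher in TC32. It read 6.64 and 6.37 at 100 nM against 5.88 and 5.65 with DMSO in TC32, and 6.05 and 5.88 at 100 nM against 6.56 and 6.41 with DMSO in A673. The difference was 1.26 ± 0.32 as deposited (limma, adjusted p 0.0133, with 2.22% of tested genes higher in TC32 and 0.0887% lower). On the relative scale it was 0.85 ± 0.20 (adjusted p 0.0207). The call as deposited held in 6 of the 12 cases with 1 array left out and the relative call in 7. The relative scale added SNORA3B (-0.87), SNORA33 (-0.82) and SNORA74A (-0.74) as lower in TC32, where 1.76% of tested genes were lower and 0.857% higher. Of the 12 cases with 1 array left out, the call held in 10 for SNORA3B, 6 for SNORA33 and 4 for SNORA74A. These comparisons share the DMSO arrays with the comparison of the lines above.

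**Figure D5:**
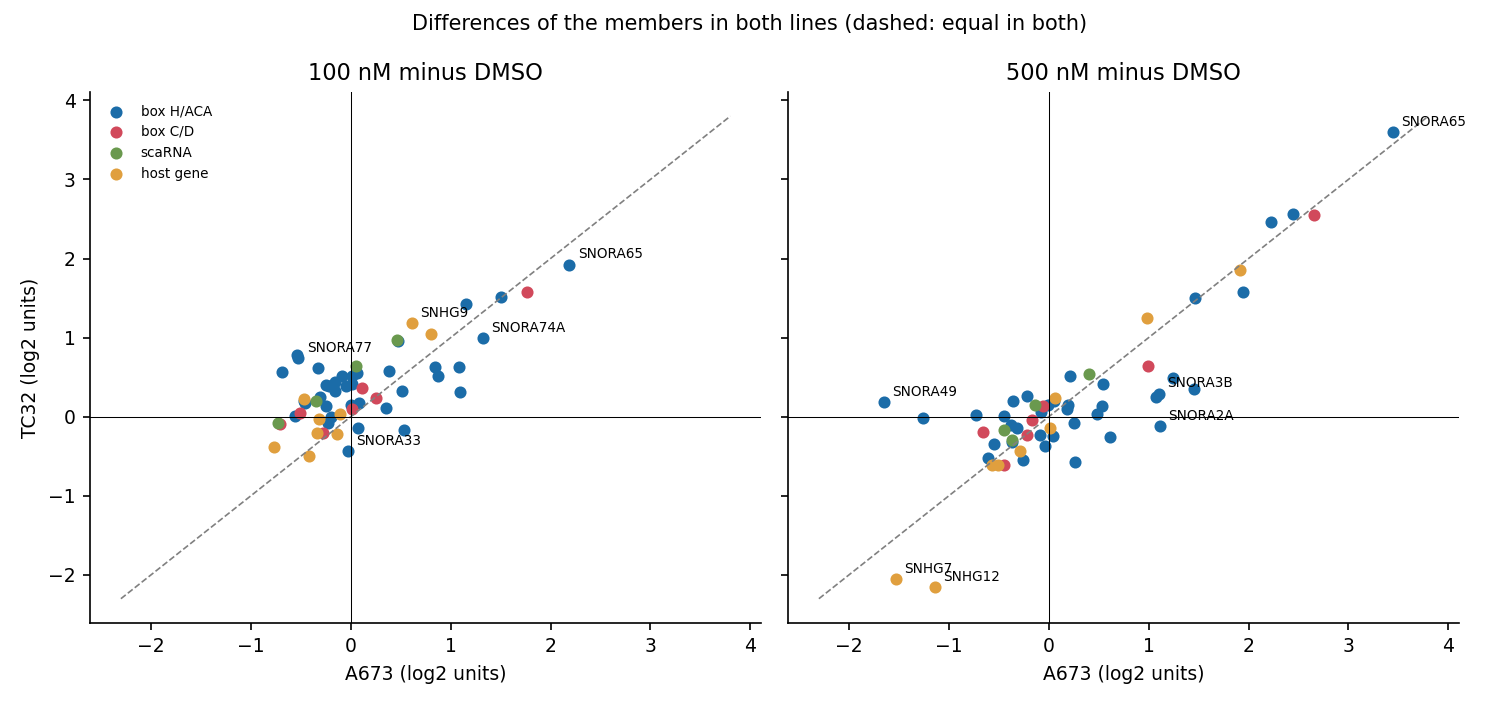
Difference from DMSO of the 57 members in TC32 (vertical) against A673 (horizontal), in log2 units, at 100 nM (left) and 500 nM (right). The dashed line marks equal differences. At 500 nM the 7 highest members lie close to it, SNHG12 lies 1.02 below it, and SNORA77 lies 1.26 above it at 100 nM.

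The genes of the proteins that small nucleolar RNAs bind were measured on the same arrays. As these genes are no members, their difference from DMSO at 500 nM was tested. The gene lists used from here on were written with earlier results of these data known. Beyond the core proteins, up to 3 genes a list were named for lying furthest from DMSO. Their counts and p-values are therefore no independent test. The box C/D core proteins lay nearest to DMSO. The methyltransferase gene FBL was at -0.20 in A673 and -0.09 in TC32 and its partner NOP56 at -0.05 and -0.12, none of them called by limma (adjusted p 0.219, 0.599, 0.735 and 0.468). FBL and NOP56 were called lower in A673 without replicate 1 at 500 nM, with adjusted p of 5.16e-05 and 0.0123. NOP58, the third of the measured box C/D core genes, fell by 0.40 and 0.39 (adjusted p 0.0176 and 0.0266), each a call that ended without any of 3 arrays. Relative to the array medians the 3 were higher than DMSO by 0.40 to 0.78.

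Of the 4 box H/ACA core genes 3 fell in each line as deposited, a share near that of all tested genes (82.5% in A673 and 62.9% in TC32). The pseudouridine synthase gene DKC1 was at -0.68 in A673 and -0.91 in TC32, GAR1 at -0.87 and -1.64, and NOP10 at -0.48 and -0.53. NHP2 was at -0.33 and -0.00 and was not called (adjusted p 0.0565 and 0.989), although it was in A673 without replicate 1 at 500 nM (8.66e-06). The NOP10 call ended in each line without either of 2 arrays, with adjusted p up to 0.232. On the relative scale DKC1 was not called in either line, GAR1 was lower in TC32 (-0.84) and not called in A673 (-0.04), and NHP2 was higher in both (0.50 and 0.79). NOP10, lower as deposited, was higher on that scale in A673 (0.35, limma adjusted p 0.0239) and not called in TC32 (0.26, adjusted p 0.0709).

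Genes of the Cajal body and of RNA trimming had medians below that of all tested genes. All 4 tested Cajal body and scaRNP genes fell in both lines on both scales, with a median of -2.53 in A673 and -2.61 in TC32 against -0.73 and -0.64 over all tested genes. They were the cap hypermethylase gene TGS1 (-2.40 and -3.18), GEMIN4 (-2.81 and -2.55), the Cajal body scaffold gene COIL (-2.66 and -2.67) and SNUPN. Of 20 genes of nuclear RNA decay and trimming, which trim precursor RNAs, 19 fell in each line as deposited, where 82.5% of all tested genes fell in A673 and 62.9% in TC32. Their medians were -1.09 and -1.20. Relative to the medians 10 were lower and 2 higher in A673, where 27.4% and 29.6% of all tested genes were, and 13 and 3 in TC32, where 30.8% and 41.3% were. The exosome subunit gene EXOSC3 (-2.94 and -2.95) and the exosome adaptor genes ZCCHC8 (-2.80 and -3.25) and RBM7 (-2.35 and -2.80) were the furthest below DMSO. In TC32 at 500 nM the means of COIL, EXOSC3, ZCCHC8 and RBM7 were dim, so these values are no ranking.

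Of 10 snoRNP assembly genes 9 fell in A673 and 6 in TC32, shares near those of all tested genes (82.5% and 62.9%). Among them were NUFIP1 (-1.39 and -2.25), SHQ1 (-1.64 and -1.89) and ZNHIT6 (-1.31 and -1.21). On the relative scale 4 were lower and 3 higher in A673, where 27.4% and 29.6% of all tested genes were. In TC32 these counts were 6 and 4, beside 30.8% and 41.3%. The relative call of ZNHIT6 ended without A673 500 nM replicate 1, TC32 500 nM replicate 1 or TC32 DMSO replicate 1. All 6 tested genes of nonsense-mediated decay, the cytoplasmic pathway that degrades many SNHG transcripts, fell in both lines. Of all tested genes 82.5% fell in A673 and 62.9% in TC32. The 6 included UPF2 (-2.14 and -2.31), SMG8 (-1.33 and -2.32), SMG9 (-1.29 and -1.10) and SMG5 (-0.52 and -1.44). Relative to the medians 3 of the 6 were lower in A673 (27.4% of all tested genes) and 4 in TC32 (30.8%), and none was higher (29.6% and 41.3%). Any link to the SNHG values was not tested.

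Protein-coding hosts from a general list, many of them ribosomal protein genes, were less far below DMSO than all tested genes. Of 42 tested, 27 fell in A673 and 15 in TC32 and none rose as deposited. Of all tested genes 82.5% and 62.9% fell and 0.946% rose in each line. The medians were -0.34 and -0.14, against -0.73 and -0.64 over all tested genes. The list was not compared with genes of equal brightness. After centring 30 were higher and 3 lower in A673, where 29.6% and 27.4% of all tested genes were. In TC32 the counts were 31 and 4, beside 41.3% and 30.8%, so the direction turns with the scaling. The fallen genes included PPAN, a ribosome biogenesis gene (-2.49 and -2.86), the translation factor gene EIF5 (-1.68 and -1.96) and PTCD3, the host of SNORD94 (-1.37 and -1.16). Of 2 long noncoding RNAs without small nucleolar RNAs, MALAT1 was above DMSO (0.38 ± 0.16, adjusted p 0.0258 in A673, and 0.60 ± 0.16, adjusted p 0.000493 in TC32) and NORAD below (-0.67 and -0.80). The MALAT1 call ended in A673 without 500 nM replicate 1 or DMSO replicate 2, and in TC32 without 500 nM replicate 1 or DMSO replicate 2. Of the 9 tested marker genes of blood, epithelial, endothelial, fibroblast and muscle cells, none was called higher at 500 nM as deposited, 4 were lower in A673 and none in TC32. Relative to the array medians 7 were higher in A673 and 9 in TC32, so their direction turns with the scaling as well. The part of other cells in the members' values was not tested.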

How the data were processed

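Biotin-labelled total RNA was hybridised to 12 arrays. The authors deposited log2 signals. Their normalisation is not given in the sources used here, and the submitters' processing notes name MAS5, GRCh37 and hg19 without a role. Of 49395 probe sets, those annotated to 1 gene and written with 3 decimals were used. Such a value repeats over the probe sets of a gene and does not tell its transcripts apart. Another 116 genes were left out because 2 symbols shared the same values. Rows of 2 decimals and rows under several symbols entered no comparison.

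Means were fitted for the 6 groups with limma 3.58.1 in R 4.3.3 (lmFit, eBayes with trend, two-sided, Benjamini-Hochberg adjusted p under 0.05) on 10148 genes at or above the 40th percentile of mean signal. Residual degrees of freedom were 6. The prior degrees of freedom that eBayes added were infinite as deposited and 15.77 after centring. As deposited each gene's spread was thus taken from the trend over all genes, and its p-values rest on far more than 6 degrees of freedom. Whole arrays are offset from each other in the deposited values, which touches every gene at once, so the adjusted p-values are smaller than 2 arrays a group warrant, and the number of arrays limits all precision. The model was tested on simulated data. Alternatives were centring each array, no filter, no trend, a replicate block and leaving out each array. Named were the 8 highest small RNAs, the 6 highest hosts and the 3 lowest members at 500 nM, up to 10 members called between the lines, hosts of members, core proteins and 3 genes a list. Further members and hosts, SMG5 and the marker genes named as examples were chosen after their values were seen. The members and the gene lists were chosen with earlier results of these data known. The 100 nM dose that the labels give for DMSO was taken as not applying.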

Additional observations from a re-analysis of the deposited data

Results flagged for a closer look

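SNHG12 had a 500 nM effect in TC32 that differed from that in A673 by -1.02 (TC32 minus A673, limma interaction). SNORA77 had a 100 nM effect that differed by 1.26 in the same direction of subtraction.

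At 100 nM, 9 members had both TC32 arrays above both DMSO arrays of that line and both A673 arrays below both of theirs. Of all kept genes, 24.0% were above in TC32 and 74.2% below in A673 at that dose. The share that did both was not counted, so the 9 are not shown to exceed it. The TC32 differences were 0.78 for SNORA49, 0.74 for SNORA77, 0.62 for SNORA78, 0.44 for SNORA70B, 0.40 for SNORA46, 0.32 for SNORA80A, 0.25 for SNORA16B, 0.22 for SNHG11 and 0.19 for SCARNA20. At 500 nM, SNORA46 alone among the 57 members did so, at 0.26 in TC32 and -0.21 in A673. Apart from that of SNORA77, these opposite directions were not tested as calls of their own. SNORA78 (adjusted p 0.0661), SNHG11 (0.147) and SCARNA20 (0.221) were not called in the interaction fit at 100 nM, and the other 5 were dim and outside it.

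Rows annotated to several symbols, at least 1 of them a small nucleolar RNA or SNHG name, held 24 further distinct sets of values. In 4 of these both 500 nM arrays lay above both DMSO arrays in both lines, and 2 stood at least 1 above DMSO in both. No gene is named from them.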

How the results depend on the processing

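With each array centred on its median, members higher in A673 under DMSO numbered 7 in place of 25 and lower 4 in place of 1. Members with a 500 nM effect lower in TC32 numbered 6 in place of 1, and at 100 nM 3 in place of 0 were lower. Members above DMSO without overlap numbered 48 (A673) and 54 (TC32) at 500 nM and 45 in A673 at 100 nM, and the median member difference was 0.83 in both lines. List genes called at 500 nM were then 40 higher and 24 lower in A673 and 42 and 32 in TC32, against 1 and 70, and 1 and 55. With no filter on dim genes, 43 members were higher in A673, 2 differed in each direction at 500 nM and 3 were higher in TC32 at 100 nM. With no trend in the variances, 2 were higher at 100 nM and no list gene was higher in A673 (0). Over members that were not dim, those above DMSO numbered 11 in A673 at 500 nM, 9 in A673 and 17 in TC32 at 100 nM. Same-numbered arrays did not pair (correlations of deviations -0.16 to 0.44, over 0.1 in 5 of 15 pairs of groups), and a replicate block gave 2 members lower in TC32 at 500 nM and 2 higher at 100 nM. Leaving out 1 array at a time, members higher in A673 numbered 13 to 26 and lower 0 to 1. Members higher in TC32 numbered 0 to 3 and lower 0 to 7 at 500 nM, and 0 to 6 and 0 to 1 at 100 nM. Without A673 500 nM replicate 2 the lower count at 500 nM was 7, and without either A673 array at 500 nM the higher count at 100 nM was 6. Members above DMSO numbered 19 to 28 in A673 and 18 to 28 in TC32 at 500 nM, and 19 to 26 and 33 to 42 at 100 nM, where fewer arrays make non-overlap easier. The median member difference ran from -0.15 to 0.14 in A673 and -0.10 to 0.078 in TC32, and list genes from 51 to 87 lower and 0 to 3 higher in A673 and 44 to 64 and 0 to 1 in TC32. The cause of these moves was not tested.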
